A study of Mus musculus with 18 samples.

Results

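The nuclear-encoded respiratory chain genes described here are 97 of the 32285 genes in the count matrices. They were taken by symbol: every symbol beginning with Nduf, Uqcr or Atp5, the cytochrome c oxidase genes Cox4i1, Cox4i2 and Cox5a to Cox8c, and Sdha to Sdhd, Cyc1, Cycs and Chchd10. By role they comprise 7 core subunits of complex I, 32 accessory or related complex I genes, 8 complex I assembly factors, 4 subunits of complex II, 9 of complex III, 18 of complex IV, 17 of complex V, and 2 others, the electron carrier cytochrome c (Cycs) and Chchd10. Ndufa4 is counted with complex I by its symbol, although its protein is now placed in complex IV. The rule uses symbols and no measured value, but it was set with earlier results of these data known.

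The cells came from skin of mice that had all undergone the same surgery, an incision near the tail with a path opened under the skin towards the neck. Expanded mice (EXP) received a self-inflating hydrogel tissue expander under the skin, and control mice (CTRL) received none. Skin was collected on day 1, 2 or 4, and live (DAPI-negative) cells were sorted. The labels used here give no strain, age or sex. Mice of an arm were pooled into 1 tube in each sequencing round, so each library is a pool of mice. The 5 libraries per arm are 2 from day 1, 2 from day 2 and 1 from day 4. The libraries measured the 3′ end of transcripts as unique molecular identifiers (UMIs), with about 1 tag per molecule whatever the length of the transcript. p-values therefore measure the spread between pooled libraries, not between single mice.

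The respiratory chain sits in the inner mitochondrial membrane. Complexes I and II pass electrons from NADH and succinate through ubiquinone to complex III, cytochrome c carries them to complex IV, which reduces oxygen, and complex V uses the proton gradient that results to make ATP. Most subunits are encoded in the nucleus and imported, while a small set of core subunits of complexes I, III, IV and V is encoded in mitochondrial DNA, so the complexes are built from both genomes. Several nuclear subunits have paralogs restricted to certain tissues or induced by low oxygen, such as Ndufa4l2 for Ndufa4 and Cox4i2 for Cox4i1.

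Nuclear respiratory factor 1 (NRF1) is a transcription factor known for its sites in promoters of respiratory genes. Promoters were taken from RefSeq (GRCm38.p6) as the 250 bases before each annotated start, and 79 members had at least 1, giving 84 promoters. The core octamer of the NRF1 site, CGCATGCG, which reads the same on both strands, was found in 9 of the 84 (10.7%), against 1.55% of 32851 promoters of all genes. The members with it were Ndufa8, Ndufa11, Ndufaf4, Cox6a1, Cycs, Atp5g2, Atp5j, Atp5k and Atp5l, and each of these 9 rose in at least 1 cell class, as did 64 of the 97 members. The windows below are shown because these 4 genes, each from a different role, carry the octamer (in capitals) in a stretch free of annotated untranslated exons. The windows give at most 20 bases on either side, from 5′ to 3′ on the gene's strand.
Atp5l, chr9:44920956-44920992 (minus strand): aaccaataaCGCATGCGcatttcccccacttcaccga
Cox6a1, chr5:115349092-115349139 (minus strand): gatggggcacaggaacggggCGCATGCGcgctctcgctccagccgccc
Cycs, chr6:50566603-50566650 (minus strand): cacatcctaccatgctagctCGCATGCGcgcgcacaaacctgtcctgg
Ndufaf4, chr4:24897951-24897998 (plus strand): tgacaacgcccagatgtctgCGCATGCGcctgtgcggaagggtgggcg
The octamer began 241 bases before the start of Atp5l, 161 before that of Cox6a1, 61 before that of Cycs and 112 before that of Ndufaf4. The other motifs searched, on both strands, were a core of the GABPA site, CCGGAAG, in 16.7% of the members' promoters and 6.91% of all, the ERR half-site AAGGTCA in 5.95% and 4.08%, and the hypoxia response core ACGTG in 21.4% and 16.6%. A match is a run of letters and says nothing of binding in these cells.

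The 10 libraries held 55174 cell barcodes with 17726739 to 75470722 gene UMIs each, and 45488 cells remained after filtering (28452 CTRL, 17036 EXP). Clustering gave 37 clusters, of which 24 could be named from fixed markers, in 17 classes. Of these, 11 classes with enough cells in at least 4 libraries per arm were tested, together with cluster 8, led by Hapln1, Chrm2 and Prok2, and cluster 9, led by Cidea, Sdr16c6 and Fgfbp1, which were left unnamed. Cluster 8 showed too few markers of any class, and cluster 9 showed those of both sebocytes and basal keratinocytes. The smooth muscle-like class also held the pericyte marker Rgs5, at 3257 CPM in CTRL (counts of a gene scaled to a total of 1000000 gene UMIs in the class and library). No pair of libraries shared more than 0.377% of barcodes. The median number of UMIs per cell was higher in EXP in each tested class, for example 11134 in CTRL against 17163 in EXP fibroblast-like cells and 6194 against 11949 in macrophage or monocyte-like cells. Counts of genes called with cells thinned to 2000 UMIs are given below. Thinning also leaves fewer counts, so it does not isolate the part that this depth plays.

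Over all cells, the 97 genes made up a larger share of gene UMIs in expanded than in control skin. The share in CTRL libraries was 1.22% and 1.28% on day 1, 1.26% and 1.69% on day 2 and 1.499% on day 4. In EXP libraries it was 1.85% and 1.77%, 1.86% and 1.95%, and 1.96%. Each EXP library was above all CTRL libraries, with means of 1.39% ± 0.200 (SD, n = 5) and 1.88% ± 0.0765 (SD, n = 5). This sum mixes cell classes whose proportions differed between the arms, so the shares were compared within classes.

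In fibroblast-like cells the share was 1.20% ± 0.193 in CTRL and 1.62% ± 0.258 in EXP (SD, n = 5 each). In macrophage or monocyte-like cells it was 1.23% ± 0.267 and 1.79% ± 0.190. Both were higher in EXP in 5 of 5 pairs of libraries of the same day and round, with ranges that overlapped between the arms. Lymphatic endothelial-like cells (1.37% ± 0.128 and 1.95% ± 0.146), endothelial-like cells (1.36% ± 0.109 and 1.77% ± 0.113), basal keratinocyte-like cells (1.67% ± 0.169 and 2.14% ± 0.180) and cluster 9 (2.40% ± 0.288 and 2.94% ± 0.0975) had ranges that did not overlap. In basal keratinocyte-like cells the gap was small, since the highest CTRL library stood at 1.927% and the lowest EXP library at 1.930%. The dendritic-like class (1.49% and 1.91%), cluster 8 (1.31% and 1.60%) and the smooth muscle-like class (2.07% and 2.27%) were also higher in EXP in 5 of 5 pairs.

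The lymphoid and dermal papilla-like classes did not show this difference. The mean share was 1.49% ± 0.158 in CTRL and 1.45% ± 0.149 in EXP in T cell-like cells, with 3 of 5 pairs higher in EXP. It was 1.56% ± 0.173 and 1.4995% ± 0.103 in NK or innate lymphoid-like cells, with 1 of 5 pairs higher. In dermal papilla-like cells, with 4 libraries per arm, it was 1.39% ± 0.192 and 1.27% ± 0.212, with 1 of 4 pairs higher. Among untested classes, neutrophil-like cells had the lowest shares (0.560% in 3 CTRL libraries and 0.441% in 5 EXP libraries) and hair follicle keratinocyte-like cells the highest in CTRL (2.67% in 4 libraries). Levels between classes are a description, since the classes were formed from the same cells.

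**Figure D1:**
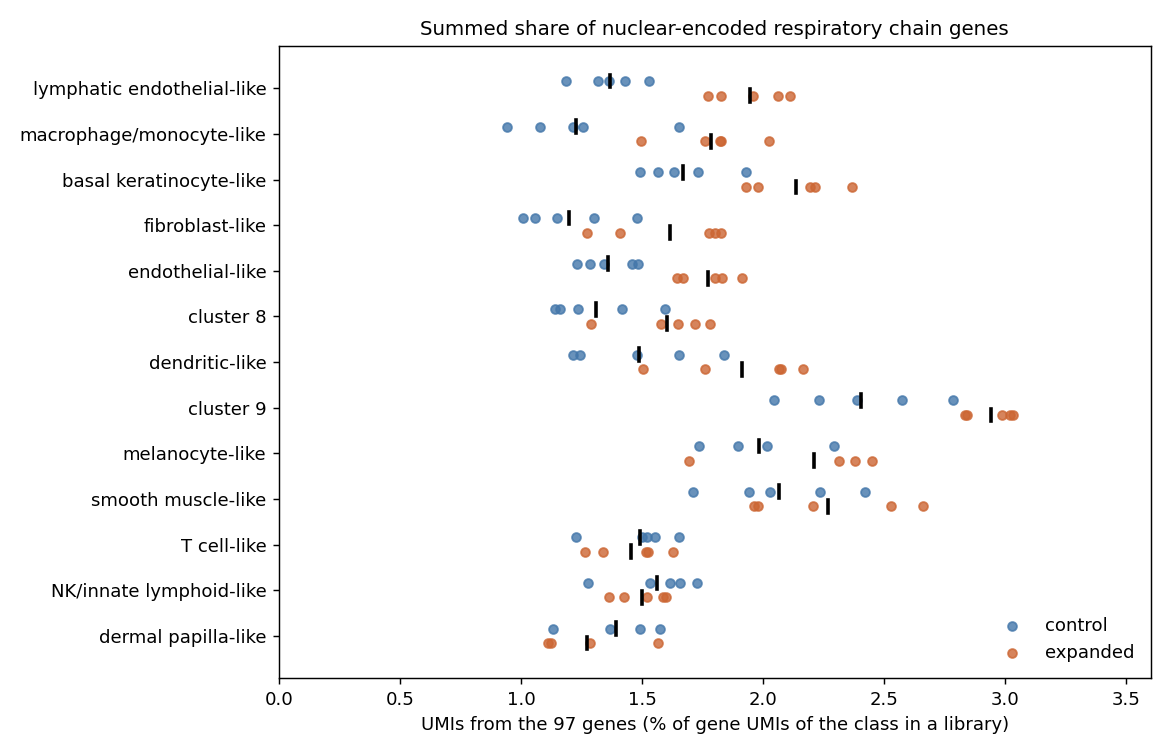
UMIs from the 97 genes as a percentage of the gene UMIs of a class in a library (x axis), by tested class, with 1 point per library and a black bar at the mean of the arm. The EXP points lie above the CTRL points without overlap in the lymphatic endothelial-like, endothelial-like and basal keratinocyte-like classes and cluster 9, while the points of both arms intermingle in the T cell-like class.

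A share can move because other transcripts change. In fibroblast-like cells the 8 fibroblast marker genes, collagens among them, summed to 126036 CPM in CTRL (72863 to 187021) and 50568 CPM in EXP (31754 to 86253), so abundant transcripts of other genes also differed between the arms. The share of cytosolic ribosomal protein UMIs in that class was 11.0% in CTRL and 14.3% in EXP. Gene tests therefore used edgeR with TMM scaling, which centres the change on the bulk of genes. The median log2 change of all tested genes lay between 0.00 and 0.02 in each class.

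Fibroblast-like cells had the most changed members. Of 94 tested, 45 rose and 4 fell in EXP (edgeR quasi-likelihood test with Benjamini-Hochberg adjustment over all genes, adjusted p below 0.05), where 31.7% of all 13146 tested genes were called, 15.8% were called higher and 15.9% lower. The median log2 change of the members was 0.33, against 0.02 for all genes. By role, 4 of 7 core and 17 of 32 accessory complex I genes rose, as did 3 of 8 complex I assembly factors, 1 of 4 complex II, 5 of 9 complex III, 5 of 15 tested complex IV and 8 of 17 complex V genes, and both Cycs and Chchd10. The 4 that fell were Ndufa4l2 and the complex IV genes Cox4i2, Cox6b2 and Cox7a2l.

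Cycs, the carrier between complexes III and IV, stood at 35.0, 47.3, 61.9, 77.8 and 69.2 CPM in the CTRL fibroblast-like libraries, in the order day 1 (2 rounds), day 2 (2 rounds) and day 4 that is kept throughout. In EXP it was 95.9, 105.2, 139.7, 157.7 and 128.3 CPM, each above all CTRL libraries, and the log2 fold change was 0.92 ± 0.11 (SE; adjusted p = 0.000309, edgeR). Uqcrq, a small subunit of complex III, was at 161, 157, 189, 262 and 193 CPM in CTRL and 339, 369.8, 452, 416 and 384 CPM in EXP. Its arms did not overlap either, and it rose by 0.83 ± 0.11 (adjusted p = 0.000451, edgeR). Cyc1, the cytochrome c1 subunit of complex III, rose by 0.68 ± 0.12 (adjusted p = 0.00191), from a mean of 43.6 ± 10.3 to 80.6 ± 7.83 CPM.

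Among complex I genes, Ndufs8, a core subunit that holds iron-sulfur clusters, rose from 29.5 ± 10.2 to 58.6 ± 10.1 CPM (SD, n = 5), without overlap. Its log2 fold change was 0.79 ± 0.15 (adjusted p = 0.00277, edgeR). The assembly factor Ndufaf6 rose by 0.81 (adjusted p = 0.0133). In complex II the iron-sulfur protein Sdhb changed by 0.31 ± 0.11 (adjusted p = 0.0573, not called), the flavoprotein Sdha by -0.16 ± 0.13 (adjusted p = 0.377) and the membrane anchor Sdhc by 0.25 ± 0.11 (adjusted p = 0.116). Only the other anchor, Sdhd, passed the threshold there, with 0.49 ± 0.12 (adjusted p = 0.00943) and means of 32.6 and 52.4 CPM. The 3 genes for the same c subunit of the complex V rotor all rose: Atp5g1 by 0.67 ± 0.14, Atp5g2 by 0.37 ± 0.12 and Atp5g3 by 0.56 ± 0.10. Their means went from 146 to 263 CPM, 195 to 295 CPM and 115 to 196 CPM. Leaving out a library gave 33 to 53 called members in this class, and thinning cells to 2000 UMIs left 36, with a median change of 0.41.

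**Figure D2:**
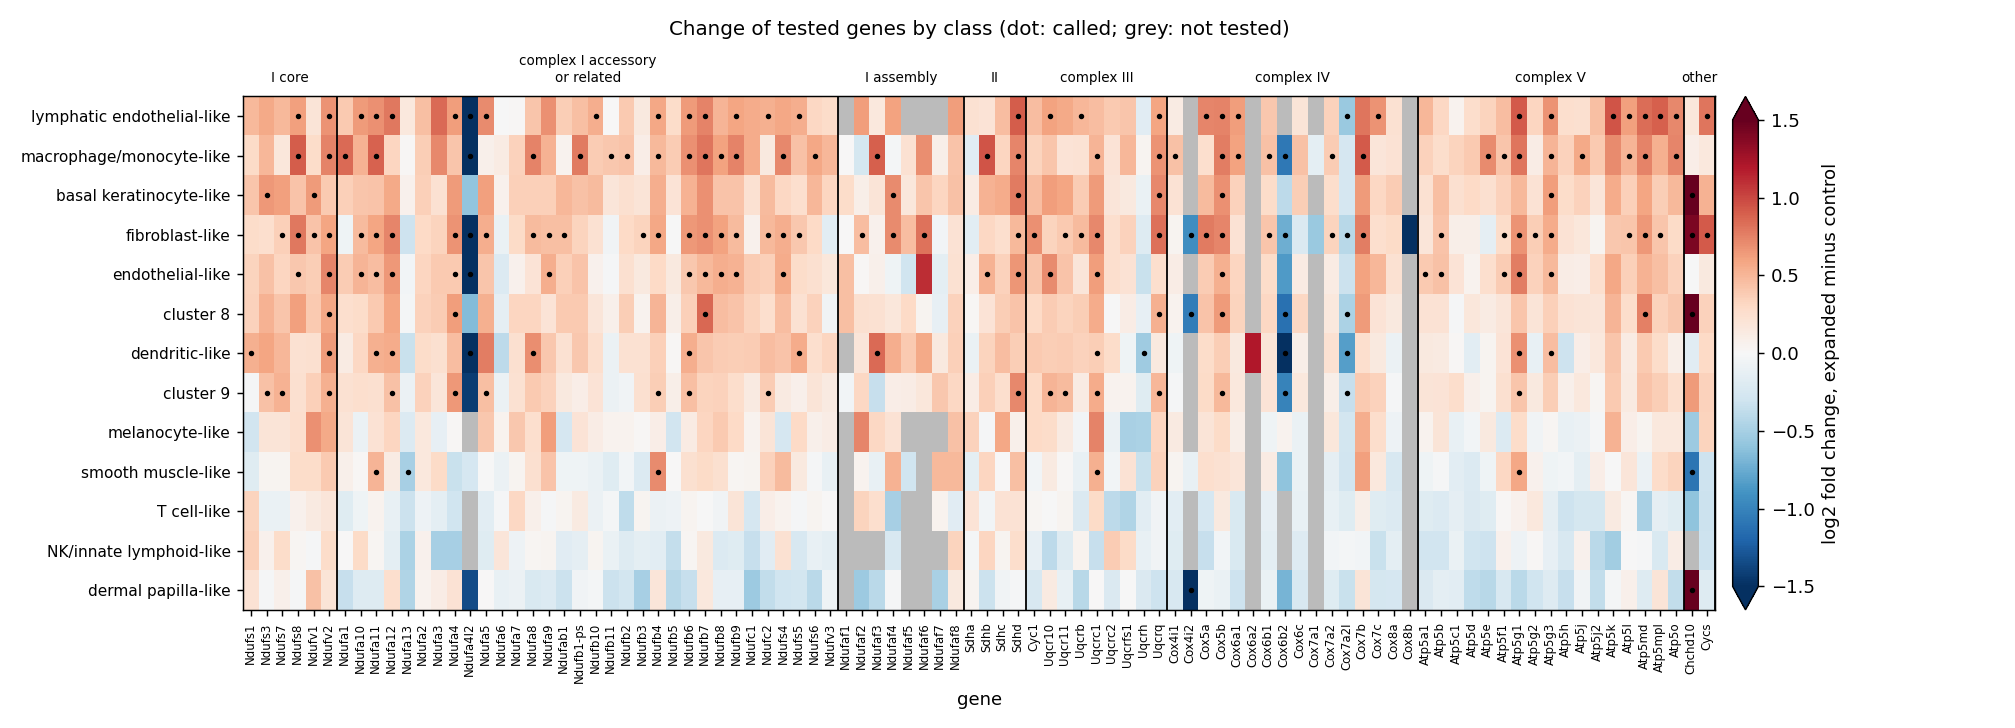
Log2 fold change (expanded minus control, colour scale limited at 1.5 in each direction) of members tested in at least 1 class (columns, by role) in the 13 tested classes and clusters (rows, ordered by the median change); a dot marks adjusted p below 0.05 (edgeR) and grey a gene not tested. Most columns are red in the upper rows and pale or blue in the T cell-like, NK or innate lymphoid-like and dermal papilla-like rows, and Ndufa4l2, Cox6b2 and Cox7a2l are blue where most other members are red.

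Macrophage or monocyte-like cells had 34 of 92 tested members higher and 2 lower, with a median of 0.42. Of all genes tested there, 24.4% were called, 10.9% higher and 13.5% lower. With the sequencing round of each day as a block, 54 members rose and 2 fell. Here and below, shares of all genes near counts from a block, DESeq2 or thinning are those of the fit without these changes. Of the roles, complex V had 8 genes that rose, the accessory complex I genes 13 of 32, complex IV 6 of 13, and complexes II and III 2 each. Sdhb was at 49.1, 49.6, 54.0, 99.0 and 77.6 CPM in CTRL and 106, 104, 148, 141 and 187 CPM in EXP, with no overlap, and rose by 0.95 ± 0.15 (adjusted p = 0.00259, edgeR). Ndufs8 rose by 0.90 ± 0.14 (adjusted p = 0.00222), from 47.2 ± 11.4 to 95.6 ± 17.7 CPM, and the assembly factor Ndufaf3 by 0.89 (adjusted p = 0.00974). Cycs was not called here (0.16 ± 0.14, adjusted p = 0.459), and its change differed from that in fibroblast-like cells by -0.69 ± 0.18 (adjusted p = 0.00474), a difference not called when thinned. The call of Ndufaf3 was lost without the EXP library of day 4.

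The macrophage or monocyte-like class was made of different clusters in the arms: cluster 4 held 86.5% of its CTRL cells and 8.59% of its EXP cells, and cluster 2 held 13.5% and 91.4%. Cluster 4 was led by Cd209f, C1qc and C1qb, and cluster 2 by Chil3, Ppbp and Arg1. Within cluster 4, 6 of 91 members rose and 1 fell (median 0.53; 5.93% of all genes called), and the summed share was 1.20% in CTRL and 1.72% in EXP. Within cluster 2, no member was called by edgeR (median 0.16, with 9 members at unadjusted p below 0.05; 0.309% of all genes called), and the share was 1.57% in CTRL and 1.80% in EXP. These fits within clusters were chosen after the data had been seen and rest on 3 to 5 libraries per arm. The count for the whole class was 23 without the CTRL library of day 1 round 2, and 21 and 20 without the CTRL or the EXP library of day 4.

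Fibroblast-like cells were also divided differently. Cluster 0 held 50.3% of them in CTRL and 14.8% in EXP, and cluster 6 held 13.7% and 58.5%. Within cluster 6, 32 of 93 members rose and 2 fell (median 0.31; 24.7% of all genes called). Within cluster 5, 11 of 92 rose and 1 fell (median 0.37; 9.6% called), and within cluster 0, with 3 EXP libraries, 1 of 93 rose (median 0.23; 0.777% called). The median was above 0 in each of the 3 clusters.

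Endothelial cells of both kinds showed the same direction. In lymphatic endothelial-like cells 30 of 86 tested members rose and 2 fell (median 0.48), against 10.3% of all genes called, 5.01% higher and 5.31% lower. In endothelial-like cells 22 of 91 rose and 1 fell (median 0.33), against 10.8% called, 4.82% higher and 6.02% lower. With the round as a block the second count was 35 and 1. Atp5g1 was at 180.5, 187, 153, 191 and 125 CPM in CTRL lymphatic endothelial-like cells and 290.4, 363, 426, 286 and 321 CPM in EXP, without overlap (0.92 ± 0.18, adjusted p = 0.00485, edgeR). In endothelial-like cells it rose by 0.76 ± 0.12 (adjusted p = 0.00326), from 159 ± 22.8 to 295 ± 52.7 CPM. Ndufv2, a core complex I subunit of the NADH-binding part, rose there by 0.73 ± 0.13 (adjusted p = 0.00631), from 65.2 ± 12.5 to 119 ± 11.3 CPM, again without overlap.

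Other lymphatic endothelial-like genes that rose were the complex V genes Atp5k (0.94), Atp5mpl (0.89) and Atp5md (0.84), Sdhd (0.91) and Cycs (0.81 ± 0.18, adjusted p = 0.0119). Atp5k varied within each arm, at 159, 65.1, 76.4, 102 and 45.1 CPM in CTRL and 294, 141, 191, 247 and 78.3 CPM in EXP, so its arms overlapped although each pair was higher in EXP. In the 10 fits without 1 library, the call of Atp5md was lost in 8 and that of Atp5k in 6, those of Sdhd and Cycs were lost without either library of day 4, and that of Atp5mpl was kept in each. The counts in both endothelial classes depended on single libraries or, for day 4, on the pair. Day is a term of the fit, so without 1 library of day 4 the other no longer informs the change. In each class, leaving out either library of day 4 is therefore the loss of the same pair. In lymphatic endothelial-like cells, 3 members remained called without the CTRL library of day 4 or without the EXP library of day 4, 11 without the CTRL library of day 1 round 2, 15 without that of day 2 round 2, 17 without the EXP library of day 2 round 1 and 21 without the CTRL library of day 1 round 1. In endothelial-like cells, 5 remained without either library of day 4, and 11 to 14 without the CTRL library of day 1 round 2 or day 2 round 1 or the EXP library of day 1 round 2 or of either day 2 round. Thinned to 2000 UMIs per cell, the counts were 9 and 4, with medians of 0.38 and 0.28.

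The basal keratinocyte-like class was cluster 3 alone. It had UMIs of all 8 basal keratinocyte markers, which summed to 18075 CPM in CTRL and 21867 CPM in EXP, but its leading genes by fold, such as Krt24, Lhx2 and Krt15, are also known from the hair follicle, whose 10 markers summed to 6211 and 5412 CPM. Basal cells of the epidermis and of the follicle are therefore not told apart here. In this class 8 of 91 tested members rose and none fell, while 1.38% of all genes were called, 0.865% higher and 0.514% lower. The median of 0.37 was as high as in classes with more calls, and 60 of the 91 were at unadjusted p below 0.05. With the round as a block 17 rose, and DESeq2 called 37. Apart from Chchd10, the genes with the largest change were Sdhd (0.78), Uqcrq (0.73), the assembly factor Ndufaf4 (0.71), the complex IV subunit Cox5b (0.68) and the complex I core subunit Ndufs3 (0.65). In the 10 fits without 1 library, the call of Ndufaf4 was lost in all 10 (adjusted p 0.0515 to 0.153, edgeR), that of Ndufs3 in 7, that of Sdhd in 6 and that of Cox5b in 3, while those of Chchd10 and Uqcrq were kept in each. Cox5b was at 187, 189, 279, 316 and 261 CPM in CTRL and 344, 328, 428, 462 and 390.2 CPM in EXP, without overlap. Leaving out 1 library left 2 to 7 called, with 5 or fewer without either library of day 1 round 1, day 1 round 2, day 2 round 2 or day 4, and thinning left 2 with a median of 0.38.

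Cluster 9 had the highest share of the tested groups. Its 8 sebocyte markers summed to 2017 CPM in CTRL (895 to 3399) and 890.1 CPM in EXP (402 to 2251), and its 8 basal keratinocyte markers to 13367 and 18469.7 CPM. Their part in the changes was not tested. There 16 of 91 members rose and 2 fell (median 0.23; 16.2% of all genes called, 7.55% higher and 8.62% lower). Ndufa4 rose from 411, 370.2, 299.5, 559 and 458 CPM to 638, 643, 736, 799 and 683 CPM, without overlap (0.65 ± 0.14, adjusted p = 0.0086, edgeR). Sdhd rose by 0.72 ± 0.13 (adjusted p = 0.00481), from 64.8 ± 9.62 to 115 ± 17.7 CPM. The count of 18 went to between 8 and 11 without either library of day 1 round 1, day 1 round 2 or day 4 or the EXP library of day 2 round 2, and to 8 when thinned.

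The dendritic-like class was cluster 1 alone, whose leading genes by fold, such as Ear2, Lyz1 and Mmp12, included none of the dendritic markers. Its dendritic markers summed to 13951 CPM in CTRL and 11141 CPM in EXP. Those of macrophages or monocytes summed to 9130 and 4682 CPM, and the part of this shift was not tested. Dendritic-like cells had 11 members that rose and 4 that fell of 91 tested (median 0.27; 16.6% of all genes called, 7.28% higher and 9.31% lower), and 22 and 5 with the round as a block. Besides Ndufa4l2, Cox6b2 and Cox7a2l, the complex III hinge protein Uqcrh fell there, by 0.53 on the log2 scale (adjusted p = 0.0147), from 429 to 346 CPM. The count of 15 fell to 3 if the day 4 CTRL library was dropped and went to 24 if the round 2 CTRL library of day 2 was, and was 4 without the EXP library of day 4, 6 to 8 without either library of day 1 round 1, the CTRL library of day 1 round 2 or either EXP library of day 2, and 2 when thinned. In cluster 8, 7 of 92 rose and 3 fell (median 0.32; 7.74% called, 3.43% higher and 4.31% lower), and 17 and 4 with the block. Its count of 10 went to 3 if the round 2 CTRL library of day 1 was dropped and to 20 if the round 2 CTRL library of day 2 was, and was 4 without the EXP library of day 1 round 1 and 6 without the CTRL library of day 2 round 1, the EXP library of day 2 round 2 or either library of day 4.

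Smooth muscle-like cells were divided between directions, with 4 of 90 members higher and 3 lower (median 0.03; 15.6% of all genes called, 6.09% higher and 9.51% lower). Ndufb4, an accessory complex I subunit, was at 73.8, 67.7, 108, 117 and 83.2 CPM in CTRL and 163, 142, 171, 170.3 and 141 CPM in EXP, and rose by 0.71 ± 0.13 (adjusted p = 0.00393, edgeR) without overlap. The accessory subunit Ndufa13 fell by 0.49 ± 0.14 (adjusted p = 0.0312). That call was lost in 7 of the 10 fits without 1 library, those of day 4 among them, with adjusted p up to 0.0938. The 7 calls went to 3 without either library of day 4 and to 4 without the CTRL library of day 1 round 2 or the EXP library of day 2 round 2.

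No member was called by edgeR in T cell-like cells (86 tested, 3 at unadjusted p below 0.05; 0.0718% of all genes called), in NK or innate lymphoid-like cells (82 tested, 3 at unadjusted p below 0.05; 0.518% called) or in melanocyte-like cells (86 tested, 8 at unadjusted p below 0.05; 1.56% called), and DESeq2 called 0 in each as well. The medians were -0.07, -0.11 and 0.13. In dermal papilla-like cells 1 of 89 rose and 1 fell, Chchd10 and Cox4i2, with a median of -0.19, where 3.59% of all genes were called, 2.05% higher and 1.54% lower. These classes were shallower or smaller than fibroblast-like cells, with 260 NK or innate lymphoid-like cells in EXP. So were lymphatic endothelial-like cells, with 534 cells in CTRL and 540 in EXP. The part of depth and cell number in these counts was not tested.

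The difference in change between classes was tested in 1 fit over all class-and-library sums, with fibroblast-like cells as the reference and 92 members tested. All 19 members that differed in NK or innate lymphoid-like cells, all 16 in T cell-like cells and all 17 in dermal papilla-like cells had a log2 change below that in fibroblast-like cells. Over all genes, 4.7%, 8.01% and 6.34% differed. In NK or innate lymphoid-like cells the change of Cycs was lower by a log2 difference of -1.25, that of Ndufa4 by -1.16, that of Cox5a by -1.10 and that of the complex III core protein Uqcrc1 by -1.03. In T cell-like cells Chchd10 differed by -2.03, Cycs by -1.12, Ndufaf4 by -1.11 and Atp5md by -1.07. In dermal papilla-like cells Uqcrq differed by -1.06, Cycs by -1.02, Atp5g1 by -0.91 and Ndufb6 by -0.87. Thinned to 2000 UMIs, the counts were 8, 9 and 5.

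In macrophage or monocyte-like cells the log2 change was higher than in fibroblast-like cells for 14 members and lower for 3. These 17 of 92 members were a share near the 16.4% of all genes that differed. Ndufaf3 (0.98) and the accessory complex I subunit Ndufa1 (0.96) were among those higher. The 3 lower were Cycs, Chchd10 (-1.56), which rose in fibroblast-like cells, and Ndufa4l2 (-1.997), which fell in both classes and by more in macrophage or monocyte-like cells. Thinned, 6 members differed. In lymphatic endothelial-like cells and cluster 9 no member differed by edgeR, with 18 and 7 at unadjusted p below 0.05, where 1.59% and 5.96% of all genes did. In endothelial-like cells, 1 of 92 members differed, Cycs (-0.72), a share below the 4.29% of all genes. Cox6c, a complex IV subunit not called within any class, had a higher log2 change than in fibroblast-like cells in basal keratinocyte-like cells (0.68) and in cluster 8 (0.61), the only member that differed in either, where 3.44% and 1.19% of all genes differed. The log2 change was lower than in fibroblast-like cells for 6 members in dendritic-like, 5 in smooth muscle-like and 1 in melanocyte-like cells, and higher for 1 in smooth muscle-like cells, Ndufa4l2, which was called lower only in the fibroblast-like class of this pair. In the 3 classes, in this order, 9.27%, 5.56% and 0.985% of all genes differed. Of the 92 members, the share was below that of all genes in dendritic-like cells and near it in smooth muscle-like and melanocyte-like cells.

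The paralogs Ndufa4 and Ndufa4l2 moved in opposite directions in fibroblast-like cells. Ndufa4l2, known as a hypoxia-inducible and pericyte-enriched gene, was at 354, 439, 579, 396 and 746 CPM in CTRL and 130.04, 151, 101, 72.0 and 245 CPM in EXP. All EXP libraries were below all CTRL libraries, and it fell by 2.12 ± 0.21 on the log2 scale (adjusted p = 0.00017, edgeR). Ndufa4 went from 175 ± 47.5 to 324 ± 68.4 CPM and rose by 0.67 ± 0.13 (adjusted p = 0.00277). Within clusters the change of Ndufa4l2 was -2.34 in cluster 6, -1.25 in cluster 5 and, not called, -1.04 in cluster 0 (adjusted p = 0.0839).

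In smooth muscle-like cells, which had the highest level of Ndufa4l2 among the tested groups together with fibroblast-like cells, the gene did not pass the test. It was at 435, 606, 389, 662 and 481 CPM in CTRL and 318, 413, 390.4, 546 and 782 CPM in EXP, overlapping ranges, with a change of -0.25 ± 0.21 (adjusted p = 0.457). The difference from fibroblast-like cells was called (2.02 on the log2 scale). Ndufa4 in these cells changed by -0.33 ± 0.26 (adjusted p = 0.423), a difference from fibroblast-like cells of -0.89.

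Ndufa4l2 also fell in macrophage or monocyte-like (-4.16 ± 0.50, adjusted p = 0.00105), dendritic-like (-3.36 ± 0.69), endothelial-like (-2.64 ± 0.52, adjusted p = 0.00894) and lymphatic endothelial-like cells (-2.13 ± 0.46, adjusted p = 0.00941), by edgeR. Its CTRL means there were 12.5, 7.13, 8.87 and 27.4 CPM, and its EXP means 0.738, 0.700, 1.37 and 6.80 CPM. In T cell-like cells, which are not known to express it and where it was too low to test, it was at 7.46 CPM in CTRL and 0.875 CPM in EXP. The 8 fibroblast markers moved alongside. Their sum was 1631 CPM in CTRL and 350 CPM in EXP T cell-like cells, and 1595 and 142 CPM in dendritic-like cells. In endothelial-like cells it was 1707 CPM in CTRL (1031 to 2536) and 697 CPM in EXP (25.6 to 2397). In lymphatic endothelial-like cells it was 7970.4 CPM in CTRL and 2339.9 CPM in EXP. The sum of the 7 pericyte markers in T cell-like cells was 9.51 and 7.72 CPM. Free RNA in a cell suspension can give UMIs in cells that do not express a gene, and its part in these falls, which stay in the counts of members called lower, was not tested. The call in lymphatic endothelial-like cells was lost without either library of day 4, and that in dendritic-like cells without the CTRL library of day 4.

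**Figure D3:**
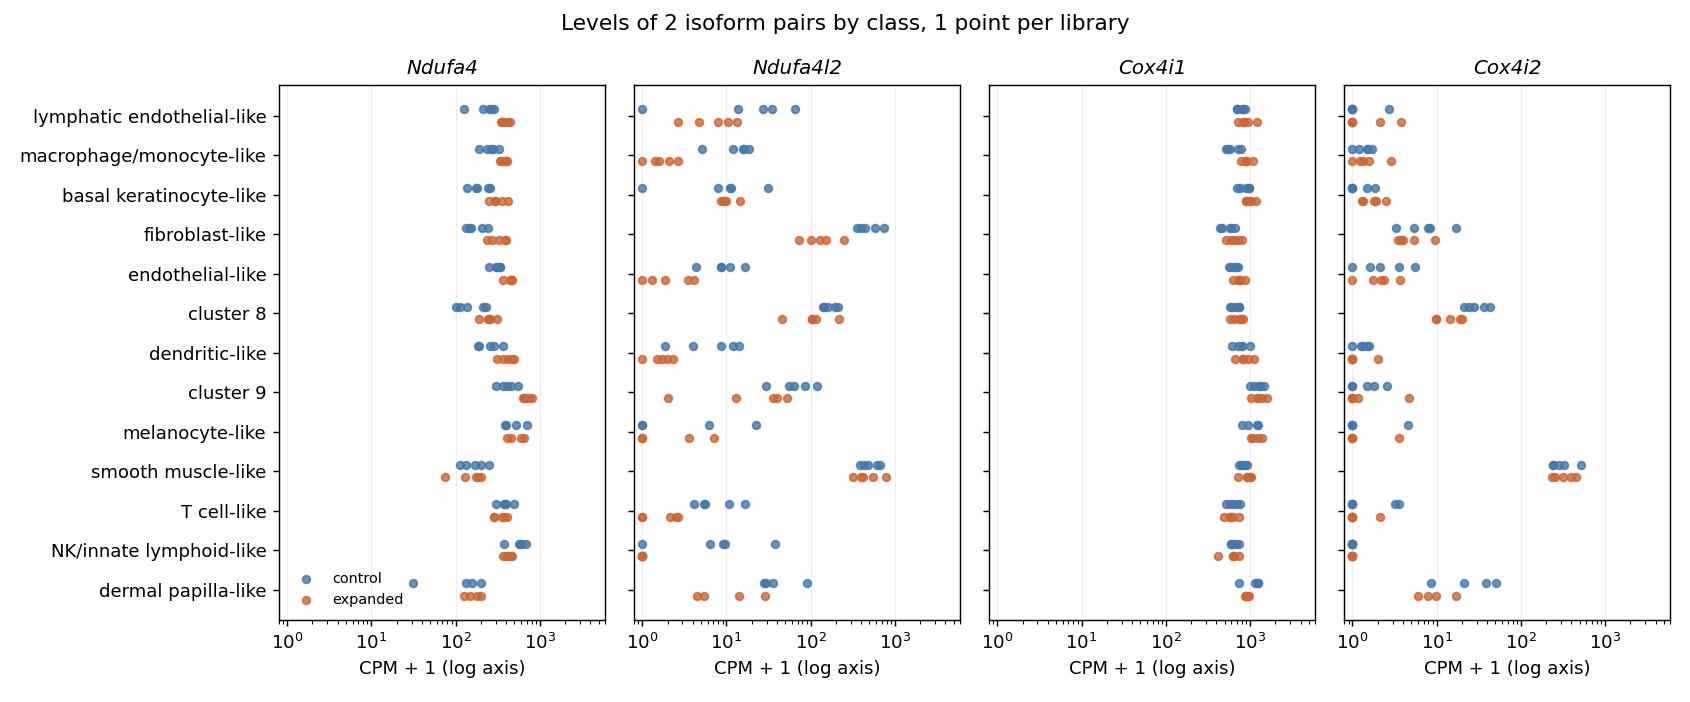
Levels (CPM + 1, log axis) of Ndufa4, Ndufa4l2, Cox4i1 and Cox4i2 in the 13 tested classes and clusters, with 1 point per library. Ndufa4l2 stands above 70 CPM in each library of the fibroblast-like and smooth muscle-like classes and lies lower in EXP in the former, Cox4i2 is above 200 CPM only in the smooth muscle-like class, and Cox4i1 is of one order in each class.

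Cox4i2, the paralog of the complex IV subunit Cox4i1 that is known for oxygen-dependent regulation, was abundant in smooth muscle-like cells, at 321 ± 113 CPM in CTRL and 330 ± 94.7 CPM in EXP (change -0.11 ± 0.20, adjusted p = 0.755). In dermal papilla-like cells it was at 49.6, 7.55, 20.1 and 37.9 CPM in CTRL and 15.9, 6.87, 8.79 and 5.03 CPM in EXP, and it fell by 1.90 ± 0.37 (adjusted p = 0.00802, edgeR), lower in 4 of 4 pairs, a call lost without either library of day 4. In cluster 8 it fell by 1.04 ± 0.25 (adjusted p = 0.0216), from 29.5 ± 8.98 to 13.7 ± 4.86 CPM without overlap, and that call was lost without either CTRL library of day 1 or the EXP library of day 1 round 1. In fibroblast-like cells it was called lower by 0.93 on the log2 scale (adjusted p = 0.0376) at means of 7.35 and 4.27 CPM, but within cluster 0 of that class the change was 0.40 (adjusted p = 0.802), and 7 of the 10 fits that left out 1 library, those of day 4 among them, lost the call. Cox4i1, the most abundant member with a mean of 808 CPM over classes and libraries, rose only in macrophage or monocyte-like cells among the tested classes (0.44 ± 0.14, adjusted p = 0.0418; 631 to 918 CPM), a call lost in 8 of the 10 fits without 1 library. In fibroblast-like cells its change was 0.04 ± 0.13 (adjusted p = 0.858).

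Cox7a2l, related to the complex IV subunit Cox7a2 and known for joining complexes III and IV into supercomplexes, fell in 5 groups. The changes were -0.83 ± 0.18 in dendritic-like (adjusted p = 0.0142), -0.56 ± 0.15 in lymphatic endothelial-like (adjusted p = 0.0269), -0.42 ± 0.11 in fibroblast-like cells (adjusted p = 0.0126), -0.48 in cluster 8 and -0.35 in cluster 9, by edgeR. In dendritic-like cells it was at 224, 251, 277, 252 and 371 CPM in CTRL and 105, 122, 214, 188 and 336 CPM in EXP, lower in 5 of 5 pairs with overlapping arms. In fibroblast-like cells, with means of 211 and 183 CPM, it was lower in 4 of 5 pairs. The calls in fibroblast-like and dendritic-like cells held in each fit without 1 library, and those in the other 3 groups were lost in 7 or 8 of the 10 fits. Within fibroblast-like clusters 0, 5 and 6 the gene was not called, with changes of -0.41, -0.22 and -0.26 (adjusted p = 0.329, 0.4 and 0.191, edgeR). Cox7a2 itself rose in fibroblast-like cells by 0.34 ± 0.10 (adjusted p = 0.0302), from 178 to 264 CPM, a call lost without the CTRL library of day 2 round 1, either EXP library of day 2 or either library of day 4.

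Cox6b2, a paralog of Cox6b1 best known from testis, had a mean of 14.2 CPM over classes and libraries and fell in 5 groups. In dendritic-like cells it was at 76.7, 93.3, 64.4, 49.0 and 54.9 CPM in CTRL and 41.5, 22.0, 21.3, 12.9 and 37.4 CPM in EXP, without overlap (-1.55 ± 0.24, adjusted p = 0.00413, edgeR). It also fell in cluster 8 (-1.12), macrophage or monocyte-like cells (-1.07 ± 0.27, adjusted p = 0.0164), cluster 9 (-1.003) and fibroblast-like cells (-0.74 ± 0.23, adjusted p = 0.0291). In the last it was at only 3.94 and 2.90 CPM, within cluster 0 its change was 0.59 (adjusted p = 0.767), and 8 of the 10 fits without 1 library lost the call. The calls in clusters 8 and 9 were lost without either library of day 4, among others. Cox6b1 rose in fibroblast-like cells by 0.42 ± 0.11 (adjusted p = 0.0148), from 186 to 290.5 CPM, a call lost without either library of day 4 (adjusted p up to 0.0556).

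Several tissue-restricted subunits of complex IV were sparse. Cox8b had 264 UMIs over all CTRL cells and 26 over all EXP cells. Cox7b2 had 24 and 1 UMIs and Cox8c 1 and 2, and neither could be tested in any class. In fibroblast-like cells Cox8b changed by -2.33 ± 0.83 (adjusted p = 0.0511), just short of the threshold. Over the whole table, 95 of the 97 members were tested in at least 1 of the 13 groups and 82 in all 13, so counts in the shallower classes leave out the low members. The 8 members that fell in at least 1 group included Ndufa4l2, Cox7a2l, Cox6b2, Cox4i2, Ndufa13, Uqcrh and Chchd10, and Chchd10 also rose in others. Cox5b, Ndufv2 and Atp5g1 rose in 7 groups each, and 26 members were called in none, among them Sdha, Sdhc, Uqcrfs1, Cox6c and Cox8a.

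Chchd10, a protein of the intermembrane space linked to cristae organization and mitochondrial stress, had the largest rises. In basal keratinocyte-like cells it was at 23.0, 19.7, 30.1, 30.02 and 21.5 CPM in CTRL and 101, 94.8, 99.4, 94.3 and 69.4 CPM in EXP (1.91 ± 0.14, adjusted p = 3.4e-05, edgeR). In cluster 8 it was at 4.88, 19.4, 5.61, 15.7 and 5.97 CPM in CTRL and 58.4, 53.2, 39.6, 80.6 and 142 CPM in EXP (2.50 ± 0.37, adjusted p = 0.00113). In neither did the arms overlap. Fibroblast-like cells rose from 9.97 ± 6.86 to 33.3 ± 15.99 CPM (1.41 ± 0.47, adjusted p = 0.0406), also without overlap, but 6 of the 10 fits without 1 library lost the call, with adjusted p up to 0.1055.

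Smooth muscle-like cells went the other way. Chchd10 was at 89.1, 144, 86.5, 48.7 and 81.9 CPM in CTRL and 36.5, 40.2, 27.2, 48.9 and 70.9 CPM in EXP, lower in 4 of 5 pairs with overlapping arms, and it fell by 1.09 ± 0.27 (adjusted p = 0.0187, edgeR). The difference from fibroblast-like cells was -2.59. The log2 change of Chchd10 was also below that in fibroblast-like cells in melanocyte-like (-2.02) and dendritic-like cells (-1.77).

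Single days were compared in a fit of arm by day, in which day 4, with 1 library per arm, takes its spread from the other days. Few members were called on a single day: 6 pairs of a member and a class on day 1, 7 on day 2 and 2 on day 4, where 1.63%, 1.04% and 0.235% of all pairs of a gene and a class were called. With 86 to 94 members tested in each class or cluster, the members' shares were below these. On day 1 fibroblast-like cells had 4 of 94 members called, a share below the 5.11% of all genes. These were Ndufa4l2, lower (-1.76), and Cycs (1.03), Ndufaf4 (0.96) and Uqcrq (0.89), higher. On day 2 fibroblast-like cells again had 4 of 94 members called, a share below the 5.1% of all genes. These were Ndufa4l2, lower (-2.65), and Cycs (0.92), Cox5b (0.83) and Ndufb7 (0.79), higher. On day 4 no member was called there by edgeR, with 6 at unadjusted p below 0.05 and 0.15% of all genes called.

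The median change varied with the day more in some classes than in others. In fibroblast-like cells the median change of the members was 0.26 on day 1, 0.45 on day 2 and 0.31 on day 4. It was 0.45, 0.41 and 0.40 in macrophage or monocyte-like cells, and in basal keratinocyte-like cells 0.38, 0.38 and 0.28. In dendritic-like cells it was 0.14, 0.38 and 0.27, in melanocyte-like cells -0.22, 0.29 and 0.03, and in dermal papilla-like cells -0.30, 0.02 and -0.43, so that of the melanocyte-like and dermal papilla-like classes changed sign between days. The difference between days was called for 1 member in 1 class, Chchd10 in dermal papilla-like cells. There it was at 68.8 CPM in CTRL and 58.1 CPM in EXP on day 1, at 7.55 and 6.02 CPM in CTRL and 32.6 and 87.9 CPM in EXP on day 2, and at 14.6 and 245 CPM on day 4. Its change was higher on day 2 than on day 1 by 3.53 ± 0.77 (adjusted p = 0.00606, edgeR; 0.23% of all genes called) and on day 4 than on day 1 by 4.32 ± 0.78 (adjusted p = 6.8e-05; 0.251% called). Days 1 and 4 rest on 1 library per arm, DESeq2 called neither difference, and the change over all days (2.56 ± 0.55, adjusted p = 0.0152) was not called without either library of day 4 or the CTRL library of day 2 round 2.

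**Figure D4:**
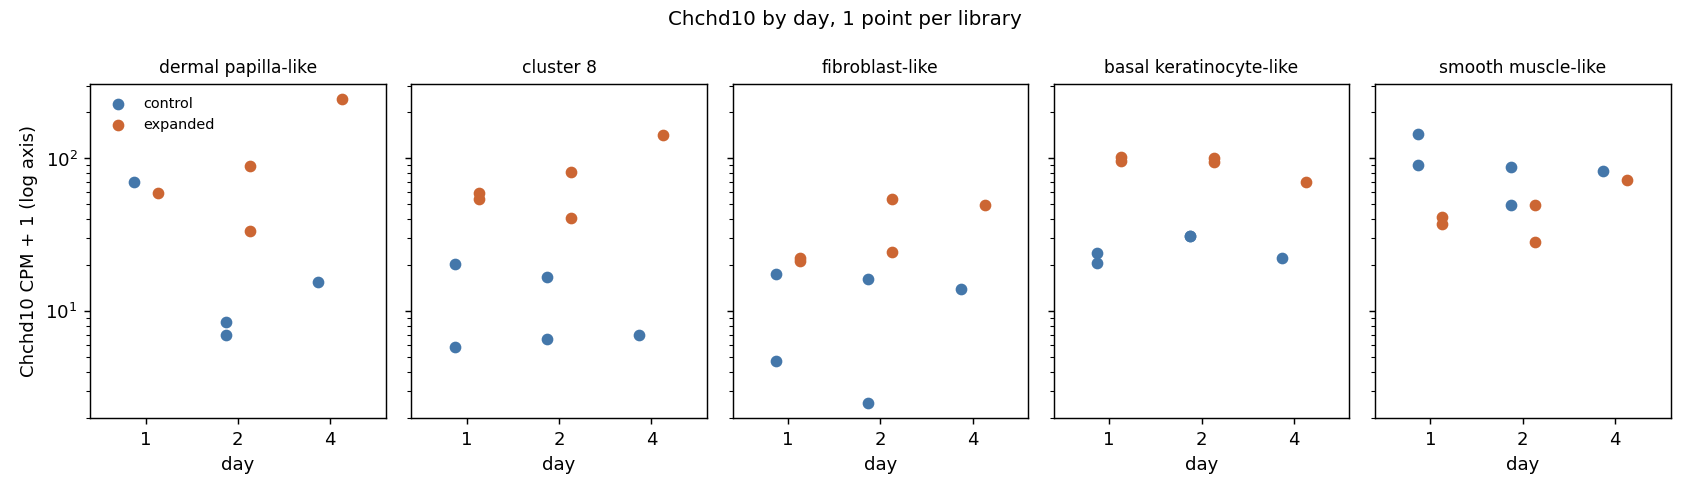
Chchd10 level (CPM + 1, log axis) by day in 5 classes or clusters, with 1 point per library. EXP points lie above CTRL points on each day in cluster 8 and the fibroblast-like and basal keratinocyte-like classes, from day 2 in the dermal papilla-like class, and below or beside them in the smooth muscle-like class.

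The genes around the chain were counted from lists drawn up with earlier results of these data known. Counts were made over whole classes. In macrophage or monocyte-like and fibroblast-like cells, the clusters that made up the class differed between the arms. The part of this difference in the list counts was not tested. Subunits encoded in mitochondrial DNA were mostly not called. In macrophage or monocyte-like cells 8 of 13 fell and none rose (median -0.49; 13.5% of all genes lower), among them mt-Nd6 (-1.35), mt-Nd2 (-1.14) and the catalytic complex IV subunit mt-Co1 (-0.49). In fibroblast-like cells 1 of 13 fell (median -0.06; 15.9% of all genes lower), in lymphatic endothelial-like cells 1 rose (median 0.01; 5.01% higher), and in cluster 9 1 rose and 2 fell (median -0.28; 7.55% higher and 8.62% lower). All mitochondrially encoded UMIs together were 3.35% of gene UMIs in CTRL and 2.52% in EXP macrophage or monocyte-like cells, lower in 5 of 5 pairs, and 2.46% and 2.63% in fibroblast-like cells. Cells with over 10% mitochondrial UMIs had been removed, 8.60% to 24.4% of barcodes by library, and the part of this filter in the mitochondrially encoded values was not tested for single genes.

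The mitochondrial ribosome, which translates those subunits, is itself nuclear-encoded. Of its genes, 51 of 78 rose and none fell in fibroblast-like cells (median 0.47; 15.8% of all genes higher), with Mrpl22 (1.15) and Mrps22 (1.07) foremost. In macrophage or monocyte-like cells, cluster 9, and the endothelial-like and dendritic-like classes, 22, 22, 19 and 19 of 78 rose and none fell, where 10.9%, 7.55%, 4.82% and 7.28% of all genes were higher. In smooth muscle-like cells, where the members had a median of 0.03, 17 of 75 rose and none fell (median 0.51; 6.09% of all genes higher). Of the cytosolic ribosomal protein genes, 23 of 77 rose in smooth muscle-like cells, against the same 6.09%. In fibroblast-like cells 7 of 77 rose, a share below the 15.8% of all genes, and in dendritic-like cells 9 of 77 fell, near the 9.31% of all genes.

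Glycolysis genes rose in part, again over whole classes whose clusters differed between the arms. In macrophage or monocyte-like cells 10 of 15 rose and 1 fell (median 0.98; 10.9% of all genes higher and 13.5% lower), led by enolase Eno1 (2.02) and pyruvate kinase Pkm (1.76), while hexokinase Hk2 fell (-0.83). In fibroblast-like cells 10 of 16 rose and 2 fell (median 0.54; 15.8% of all genes higher and 15.9% lower), with Pkm (1.22), Eno1 (1.10), Hk2 (-0.97) and Pfkp (-0.68). Genes of the citrate cycle and pyruvate dehydrogenase were less uniform. In fibroblast-like cells 8 of 18 rose and 1 fell, against the same shares of all genes, with fumarase Fh1 at 0.61 and the NADP-dependent Idh2 at -0.55. Macrophage or monocyte-like cells had 4 of 17 higher and 2 lower (10.9% and 13.5% of all genes), with malate dehydrogenase Mdh2 at 1.05, Fh1 at -1.32 and Idh2 at -1.11.

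Regulators of mitochondrial biogenesis had more genes lower than higher in fibroblast-like cells, where 15.8% of all genes were higher and 15.9% lower. There 1 of 12 rose, the mitochondrial RNA polymerase Polrmt (0.68), and 4 fell, among them the coactivators Ppargc1a (-1.98) and Pprc1 (-0.51). In cluster 9, 2 of 11 rose (7.55% of all genes higher), the nuclear receptor Esrra (0.74) and the mitochondrial DNA-packaging factor Tfam (0.49). Assembly factors of complexes II to V had 5 of 30 higher and 3 lower in fibroblast-like cells, shares near or below those of all genes, with Sco2 (1.02), Sdhaf1 (0.97), Cox19 (-0.46) and Ttc19 (-0.38). Among hypoxia response genes, 4 of 11 rose in macrophage or monocyte-like cells (10.9% of all genes higher), with Ankrd37 (1.46) and Vegfa (0.87), and 1 of 10 rose and 3 fell in fibroblast-like cells (15.8% and 15.9% of all genes), with Higd1a (0.40), Pdk1 (-0.76) and P4ha1 (-0.75).

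**Figure D5:**
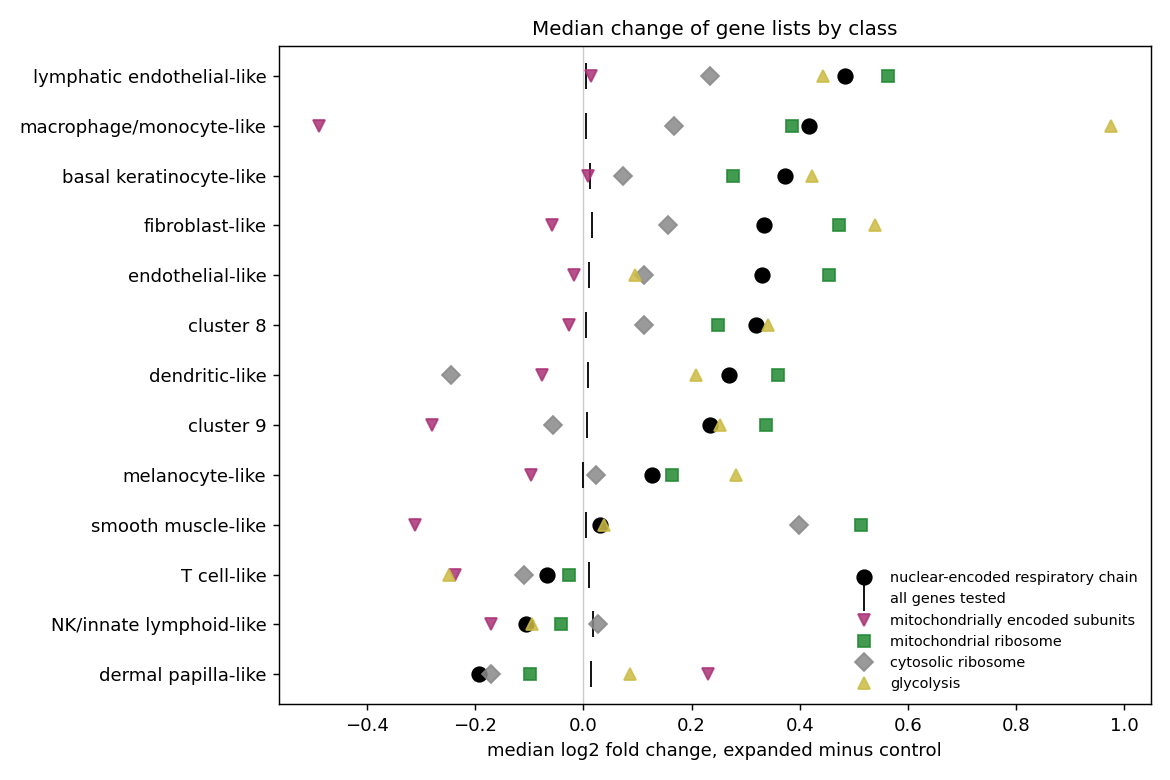
Median log2 fold change (expanded minus control) of the nuclear-encoded respiratory chain genes (black circles), 4 other lists and all tested genes (black ticks) in the 13 tested classes and clusters. The circles and the mitochondrial ribosome squares stand to the right of the ticks from lymphatic endothelial-like cells down to cluster 9, while the mitochondrially encoded subunits lie at or left of 0 in most groups, furthest in macrophage or monocyte-like cells (-0.49).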

How the data were processed

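Dissociated mouse skin was profiled in 10 mRNA libraries (18 samples with 8 hashing lists). For the CTRL pair of day 1 round 2, the titles of the mRNA and hashing samples are exchanged; the library type label and library name were followed. The authors deposited UMI counts per gene and cell barcode, made with Cell Ranger 6.1.2 against mm10, per the submitters' processing notes. The 97 members and all lists were chosen with earlier results of these data known.

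Barcodes with under 200 genes, under 500 UMIs or over 10% mitochondrial UMIs were dropped. Doublets called by Scrublet (0.0584% to 2.97% of a library) and from hashing tags were removed, 1.46% to 5.78% per library in all. Scrublet marked under 0.5% in 4 libraries, so doublets may remain there. Cells were clustered (Python 3.11.15, scanpy 1.11.5, leidenalg 0.10.2, 2000 variable genes, 30 principal components, resolution 1) and named from fixed markers. The lead a class needed over the next was set while clusters were examined, and 14.3% of cells stayed in no tested or named group.

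Counts were summed per class and library (at least 20 cells) and tested in R 4.3.3 with edgeR 4.0.16 (quasi-likelihood, TMM, filterByExpr, day and arm as terms), calling adjusted p below 0.05. Tests were checked on simulated data. DESeq2 1.42.0, no filter, a replicate block, left-out libraries, thinning to 2000 UMIs, a 5% mitochondrial limit, sums per mouse (Seurat 5.3.0 HTODemux) and clustering without the members were alternatives. Libraries of a day share a sequencing round by their titles, which pairs them. Deviations of such pairs from the mean of their arm over all days correlated at -0.0801 to 0.592, over 0.1 in 50 of 63 pairs. Day was not taken out, so these values do not separate a shared round from a shared day. Genes named were the 6 called members per class with the largest change that moved alike in each pair, paralogs and their partners, the 2 most abundant members per complex, and members that differed between days or classes. Ranges cover libraries, and counting error is not given separately. Values of 1 member are not reported here, although it is kept in the counts.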

Additional observations from a re-analysis of the deposited data

Results flagged for a closer look

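In 136 groups of 4 or 5 libraries, 6 had 1 library far from the others by Dixon's test; chance flags about 1 in 20 groups. Chchd10 in basal keratinocyte-like cells was 69.4 CPM in the EXP library of day 4, below the other 4. Sdhd in the same class was 65.3 CPM in the EXP library of day 2 round 2, above the others. Cox6b2 in cluster 9 was 9.56 CPM in the CTRL library of day 2 round 1 and 9.14 CPM in the EXP library of day 1 round 1. Cycs in lymphatic endothelial-like cells was 283 CPM in the EXP library of day 2 round 1, the highest of its arm. Ndufaf3 in macrophage or monocyte-like cells was 14.7 CPM in the CTRL library of day 2 round 2.

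The change of Chchd10 in dermal papilla-like cells differed between days, by 3.53 (day 2 minus day 1) and 4.32 (day 4 minus day 1) on the log2 scale. Other differences were between the change in a class and that in fibroblast-like cells, tested in the joint fit. In NK or innate lymphoid-like cells these were Cycs (-1.25), Ndufa4 (-1.16), Cox5a (-1.10) and Uqcrc1 (-1.03). In T cell-like cells they were Chchd10 (-2.03), Cycs (-1.12), Ndufaf4 (-1.11) and Atp5md (-1.07). In dermal papilla-like cells they were Uqcrq (-1.06), Cycs (-1.02), Atp5g1 (-0.91) and Ndufb6 (-0.87). In dendritic-like cells they were Chchd10 (-1.77), Uqcrq (-0.72), Cycs (-0.65) and Ndufs8 (-0.61). In smooth muscle-like cells they were Chchd10 (-2.59), Ndufa4l2 (2.02), Cycs (-1.13) and Ndufa4 (-0.89). In macrophage or monocyte-like cells they were Ndufa4l2 (-1.997), Chchd10 (-1.56), Ndufaf3 (0.98) and Ndufa1 (0.96). Single genes differed in endothelial-like cells (Cycs, -0.72), melanocyte-like cells (Chchd10, -2.02), basal keratinocyte-like cells (Cox6c, 0.68) and cluster 8 (Cox6c, 0.61).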

How the results depend on the processing

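The part of depth in the counts of called members was not tested. Cells held more UMIs in EXP in each tested class, low members went untested in shallow classes, and day 4 has 1 library per arm, whose spread is taken from the other days. Leaving out 1 library in turn gave 33 to 53 called members in fibroblast-like, 20 to 46 in macrophage or monocyte-like, 3 to 28 in lymphatic endothelial-like, 5 to 18 in endothelial-like, 8 to 23 in cluster 9, 3 to 24 in dendritic-like, 3 to 20 in cluster 8, 2 to 7 in basal keratinocyte-like, 3 to 8 in smooth muscle-like, 1 to 2 in dermal papilla-like, and 0 to 1 in NK or innate lymphoid-like cells. With the replicate block, which uses the pairing by round, 56 were called in macrophage or monocyte-like, 36 in endothelial-like, 27 in dendritic-like cells, 21 in cluster 8 and 17 in basal keratinocyte-like cells, and counts in the other groups stayed within 1.5 times. With DESeq2, 37 were called in basal keratinocyte-like cells. With no filter the count was 31 there and 1 each in T cell-like and NK or innate lymphoid-like cells. With sums per mouse it was 69 in macrophage or monocyte-like, 62 in dendritic-like, 8 in endothelial-like cells, 42 in cluster 9 and 5 in cluster 8. Those fits took mice as replicates, although the mice of an arm in a round shared 1 library. Mice of 1 library are not independent, so these counts can be too high. The fits left out day 1 round 1, which had no hashing samples. In endothelial-like cells and cluster 8 they held only 5 EXP mice. With a 5% mitochondrial limit the count was 34 in cluster 9. Thinned to 2000 UMIs, which leaves fewer counts, it was 9 in lymphatic endothelial-like, 4 in endothelial-like, 8 in cluster 9, 2 in dendritic-like and 2 in basal keratinocyte-like cells. Within single clusters it was 1 (cluster 0) and 12 (cluster 5) in fibroblast-like and 0 (cluster 2) and 7 (cluster 4) in macrophage or monocyte-like cells. In endothelial-like cells it was 0 in cluster 30, where 185 of 7830 genes were called. Cluster 7, with 79.4% of the CTRL and 87.1% of the EXP endothelial-like cells, had 24 of 89 members higher and 1 lower. There the median was 0.37, and 970 of 9692 genes were called. The fits within clusters were chosen after seeing the data. For single days, DESeq2 called 13 member and class pairs on day 1, 18 on day 2 and 4 on day 4, and 0 for each difference between days. Thinning left 4 on day 2 and 0 for day 2 minus day 1. For differences from fibroblast-like cells, thinning left 8 in NK or innate lymphoid-like, 9 in T cell-like, 1 in dendritic-like, 5 in dermal papilla-like, 6 in macrophage or monocyte-like, 0 in endothelial-like and 0 in melanocyte-like cells. With cytosolic ribosomal UMIs left out of the total, the difference in summed share (EXP minus CTRL) was 0.566 percentage points in endothelial-like cells (0.412 otherwise) and 0.738 in lymphatic endothelial-like cells (0.580 otherwise). Of 3554 alternative values for 212 named gene and class pairs, 3147 kept their direction and side of the threshold, 336 lost the call, 69 gained one and 2 reversed: within cluster 0 of fibroblast-like cells, Cox4i2 changed by 0.40 (adjusted p = 0.802, edgeR) and Cox6b2 by 0.59 (adjusted p = 0.767). Many of the 212 pairs, such as Sdha in each class, were not called in the main fit. Those pairs could not lose a call, so 3147 does not measure how stable the calls were. The cause of the shifts between fits was not tested. No share of all genes called is given for the block, DESeq2, no-filter, thinned, per-mouse, mitochondrial-limit or left-out-library counts.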
